A study of Mus musculus with 217 samples.

Results

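The transcription factors that give striatal neurons their identity were followed in an inducible mouse model of Huntington's disease. The set was a list of 10 genes named by symbol, *Foxp1*, *Foxp2*, *Bcl11b*, *Ebf1*, *Isl1*, *Meis2*, *Rarb*, *Ikzf1*, *Zfp503* and *Six3*, out of 54532 genes in each count table. All 10 were found and all 10 passed the filter of at least 1 count in every tissue and age. RNA of striatum and cerebral cortex was sequenced from C57BL/6 mice at 6 and 12 months of age, giving 107 striatal and 110 cortical libraries in 22 groups. Groups held 10 mice (5 females and 5 males), except 3 striatal groups at 12 months with 9 (WT, LacQ140 and LacQ140_8M).

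Every mouse, controls included, carried the beta-actin-LacIR transgene, a Lac repressor driven ubiquitously by the beta-actin promoter. The labels give the WT genotype as Hdh(LacO-+/+):beta-actin-LacIR tg and the model genotype as Hdh(LacO-140Q/+):beta-actin-LacIR tg, so that LacQ140 mice had 1 expanded allele, with human exon 1 sequence, under Lac operators. IPTG, a lactose analog, releases the repressor. WT mice had no IPTG, WT + IPTG and LacQ140 mice had IPTG from embryonic day 5 until collection, LacQ140_A mice never had it, and LacQ140_2M and LacQ140_8M mice had it withdrawn at 2 or 8 months of age. By design the expanded allele was thus repressed throughout life in LacQ140_A mice and from 2 or 8 months in the other lowering groups. No LacQ140_8M group existed at 6 months. The labels place all 6-month libraries in 1 batch and all 12-month libraries in another, so batch and age cannot be told apart.

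Most striatal neurons are GABAergic spiny projection neurons, which carry either the D1 dopamine receptor (direct pathway) or the D2 receptor and enkephalin (indirect pathway). A group of DNA-binding proteins sets this fate during development, and several stay expressed in the adult neuron. Loss of spiny neuron transcripts is a known feature of Huntington's disease models. In bulk tissue, fewer cells of a type and less RNA per cell cannot be told apart.

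The genes fall into a few families (positions on GRCm38, from GENCODE vM21). *Foxp1* (ENSMUSG00000030067, chr6:98925338-99522721, minus strand) and *Foxp2* (ENSMUSG00000029563, chr6:14901349-15441977, plus strand) encode forkhead repressors. *Bcl11b* (ENSMUSG00000048251, chr12:107910403-108003602, minus strand) encodes the zinc finger protein CTIP2, required for spiny neuron differentiation. *Ikzf1* (ENSMUSG00000018654, chr11:11685003-11772926, plus strand) encodes Ikaros, a zinc finger factor of blood cells that also acts in developing enkephalin neurons. *Zfp503* (ENSMUSG00000039081, chr14:21983959-21989601, minus strand) encodes the zinc finger protein NOLZ1.

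Among the homeodomain factors, *Meis2* (ENSMUSG00000027210, chr2:115863064-116065839, minus strand) encodes a cofactor of the TALE class. *Isl1* (ENSMUSG00000042258, chr13:116298281-116309689, minus strand) encodes a LIM factor of direct-pathway and cholinergic neurons. *Six3* (ENSMUSG00000038805, chr17:85613608-85629302, plus strand) encodes a homeodomain factor of developing indirect-pathway neurons. *Ebf1* (ENSMUSG00000057098, chr11:44617317-45008091, plus strand) encodes a helix-loop-helix factor of direct-pathway neurons. *Rarb* (ENSMUSG00000017491, chr14:16430839-16819156, minus strand) encodes retinoic acid receptor beta, a ligand-activated receptor.

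Libraries held between 33292014 and 68038785 counts, and levels are counts per 1000000 counts of the library (CPM), scaled by the trimmed mean of M values (TMM) within a tissue and age. A gene was called changed at an adjusted p under 0.05 (edgeR quasi-likelihood test, Benjamini-Hochberg over all genes) together with a fold change of at least 1.2. *Htt*, whose counts hold reads of both alleles, averaged 102 CPM in LacQ140 striatum at 6 months against 87.7 in LacQ140_A and 88.9 in LacQ140_2M. At 12 months it averaged 111 CPM in LacQ140 against 93.4 in LacQ140_A, 100.3 in LacQ140_2M and 110.9 in LacQ140_8M, with overlapping libraries. Total *Htt* of LacQ140_8M mice thus lay at the LacQ140 level in striatum, while in 12-month cortex it averaged 17.99 CPM against 23.88 in LacQ140, 17.74 in LacQ140_2M and 16.99 in LacQ140_A, again with overlap. A fixed list of 21 measured spiny neuron genes summed to 12190 to 17500 CPM in WT + IPTG striatum at 6 months and to between 1415 and 1882 CPM in cortex, as the tissue labels say. No marker of the 10 cell type lists was at 0 in any group.

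The members were striatal genes in these libraries as well, which is how they came to be listed. In WT + IPTG mice at 6 months, 9 of 10 were at least 2-fold higher in striatum than in cortex, where 11.4% of all genes tested passed the same bound in either direction. *Six3* differed most (log2 difference 4.99 ± 0.244 SE), followed by *Isl1* (4.68 ± 0.318) and *Rarb* (4.22 ± 0.124). *Ebf1* (1.67 ± 0.0898), *Foxp1* (1.86 ± 0.0873), *Bcl11b* (2.00 ± 0.0887), *Meis2* (2.11 ± 0.0557), *Zfp503* (2.20 ± 0.122) and *Foxp2* (2.56 ± 0.13) differed less. *Ikzf1* was higher by 0.63 ± 0.0862, under the bound (adjusted p = 4.7e-10). For all 10, the lowest striatal library lay above the highest cortical library of the same group, with levels scaled within each tissue. For *Ikzf1* the gap was small (6.02 against 5.72 CPM). The share of all genes without overlap between the tissues was not computed.

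At 12 months all 10 passed, against 31.9% of all genes, with log2 differences from 2.01 (*Ikzf1*) to 7.20 (*Six3*). The cortical libraries of that age differed in composition. The slope of log2 CPM on log2 transcript length averaged -0.118 in 12-month cortex and 0.277 in 6-month cortex, against 0.3 in 6-month and 0.367 in 12-month striatum. With this slope as a covariate all 10 were still called at 12 months, but the difference fell to 2.43 for *Foxp1* (3.61 without it), 2.44 for *Bcl11b* (4.46 without it), 2.17 for *Ebf1* (3.60 without it) and 1.26 for *Ikzf1*.

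Per kilobase of exon, the order of levels in WT + IPTG striatum at 6 months began with *Meis2* (33.96 CPM per kb), whose libraries all lay above those of the next member. *Bcl11b* (17.8), *Rarb* (17.2) and *Foxp1* (13.8) followed, and each overlapped with its neighbour. *Six3* stood apart from both neighbours at 7.35. *Isl1* (3.92) overlapped with *Zfp503* (2.89), and *Zfp503* with *Foxp2* (2.29). *Ebf1* (1.51) and *Ikzf1* (1.39) were lowest and overlapped with each other. At 12 months the first 5 kept this order, from 42.3 for *Meis2* to 11.1 for *Six3*, with *Zfp503* (4.66) next and *Isl1* (3.48) after it. In cortex *Isl1* ranged from 0.0 to 2.85 CPM over all libraries at 6 months, so that values there rest on few counts.

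**Figure D1:**
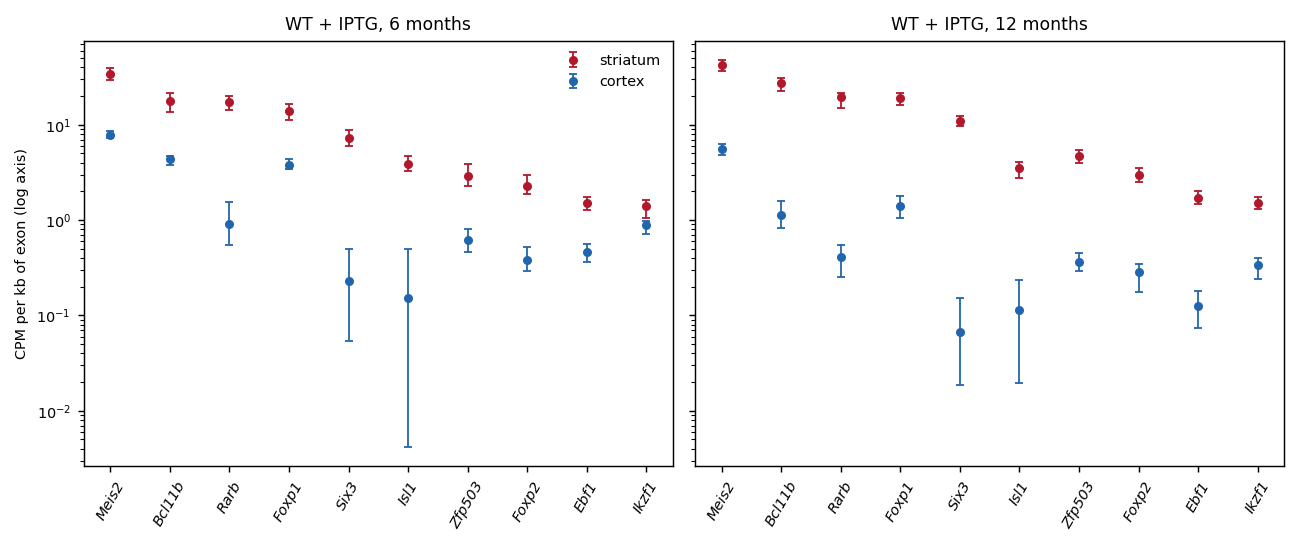
Mean level per kilobase of exon of the 10 transcription factors in WT + IPTG mice (y axis, CPM per kb on a log scale, n = 10 mice per tissue and age), in striatum (red) and cortex (blue), with bars from the lowest to the highest library. In every pair the striatal bar lies above the cortical bar, and *Ikzf1* at 6 months shows the smallest gap (log2 difference 0.63). Levels of each tissue were scaled separately.

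To ask what the expanded allele did, LacQ140 mice were compared with WT + IPTG mice, both on IPTG. In striatum at 6 months, 3 of 10 members rose (*Ebf1*, *Isl1* and *Zfp503*) and none fell past the bound, while 7.93% of all genes were called in either direction. The median log2 fold change of the members was -0.0048, against 0.0 over all genes.

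*Isl1* ranged from 13.0 to 18.6 CPM in WT + IPTG striatum (median 15.3) and from 17.0 to 21.0 in LacQ140 (median 19.2). Most LacQ140 libraries lay above the WT + IPTG range, and the groups overlapped at their edges. The log2 fold change was 0.29 ± 0.0648 SE (adjusted p = 0.00089, edgeR). *Ebf1* ranged from 12.4 to 17.0 CPM (median 14.5) in WT + IPTG and from 14.1 to 24.0 (median 17.4) in LacQ140, with a log2 fold change of 0.29 ± 0.0697 (adjusted p = 0.00247, edgeR). The highest *Ebf1* library, LacQ140 F5, carried part of this difference: without it the fold change was 0.23, under the bound, as it was without WT + IPTG F5 (0.26). *Zfp503* ranged from 9.51 to 16.3 CPM (median 12.1) in WT + IPTG and from 12.3 to 22.6 (median 16.6) in LacQ140, with a log2 fold change of 0.46 ± 0.116 (adjusted p = 0.00389, edgeR). Against WT mice with and without IPTG together, *Ebf1* (0.23) and *Isl1* (0.22) fell short of the 1.2-fold bound and *Zfp503* (0.33) stayed past it.

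The other 7 members did not pass at 6 months. *Meis2* averaged 362 ± 27.3 CPM (SD, n = 10) in LacQ140 against 409 ± 40.1 (n = 10) in WT + IPTG, a log2 difference of -0.17 ± 0.0505 with an adjusted p of 0.0134 (edgeR) but under 1.2-fold. *Foxp1* (-0.07, 95% interval -0.211 to 0.0707) and *Bcl11b* (-0.03, -0.195 to 0.126) had intervals that include 0. So did *Foxp2* (0.03, -0.121 to 0.171) and *Six3* (0.10, -0.0659 to 0.259). *Rarb* stood at -0.14 (adjusted p = 0.17) and *Ikzf1* at -0.17 (adjusted p = 0.229, both edgeR). *Rarb* was called lower (-0.27) when both WT groups served as controls, a comparison in which IPTG differs too.

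At 12 months 4 of 10 members fell in the same comparison, *Foxp1*, *Bcl11b*, *Meis2* and *Rarb*, and none rose, while 9.44% of all genes were called in either direction. These are the 4 members with the highest levels per kilobase in striatum. The median log2 fold change of the members was -0.168, against 0.0 over all genes. Shares of all genes are over every gene with at least 1 count, here 35386. Many of these had low levels, as 13272 genes beside the members reached a mean log2 CPM of at least 1 in striatum at both ages. The share called among genes of like level was not computed.

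*Rarb* moved most. It ranged from 79.8 to 114 CPM in WT + IPTG striatum (median 102) and from 59.3 to 77.6 in LacQ140 (median 70.9). Every LacQ140 library lay below every WT + IPTG library. On the log2 scale LacQ140 differed by -0.54 ± 0.0643 SE (adjusted p = 5.9e-10, edgeR). *Bcl11b* ranged from 184.6 to 249 CPM (median 231.9) in WT + IPTG and from 146 to 181 (median 165) in LacQ140, again without overlap, with a log2 fold change of -0.45 ± 0.0638 (adjusted p = 8.5e-08, edgeR).

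*Foxp1* ranged from 221.4 to 297.5 CPM in WT + IPTG (median 266.7) and from 165 to 224.4 in LacQ140 (median 204). The groups met only where the highest LacQ140 library passed the lowest control library. The log2 fold change was -0.41 ± 0.06 SE (adjusted p = 2e-07, edgeR). *Meis2*, the most abundant member, ranged from 436.5 to 575 CPM (median 519) and from 357 to 441 (median 403), with a log2 fold change of -0.35 ± 0.0533 (adjusted p = 5.8e-07, edgeR). All 4 were called in each of 19 fits that left out 1 mouse. The LacQ140 library M2 held 462.5 CPM of summed cortical projection neuron markers, against at most 194 in the WT + IPTG group. Without 1 mouse, that library included, the *Rarb* value lay between -0.58 and -0.51.

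**Figure D2:**
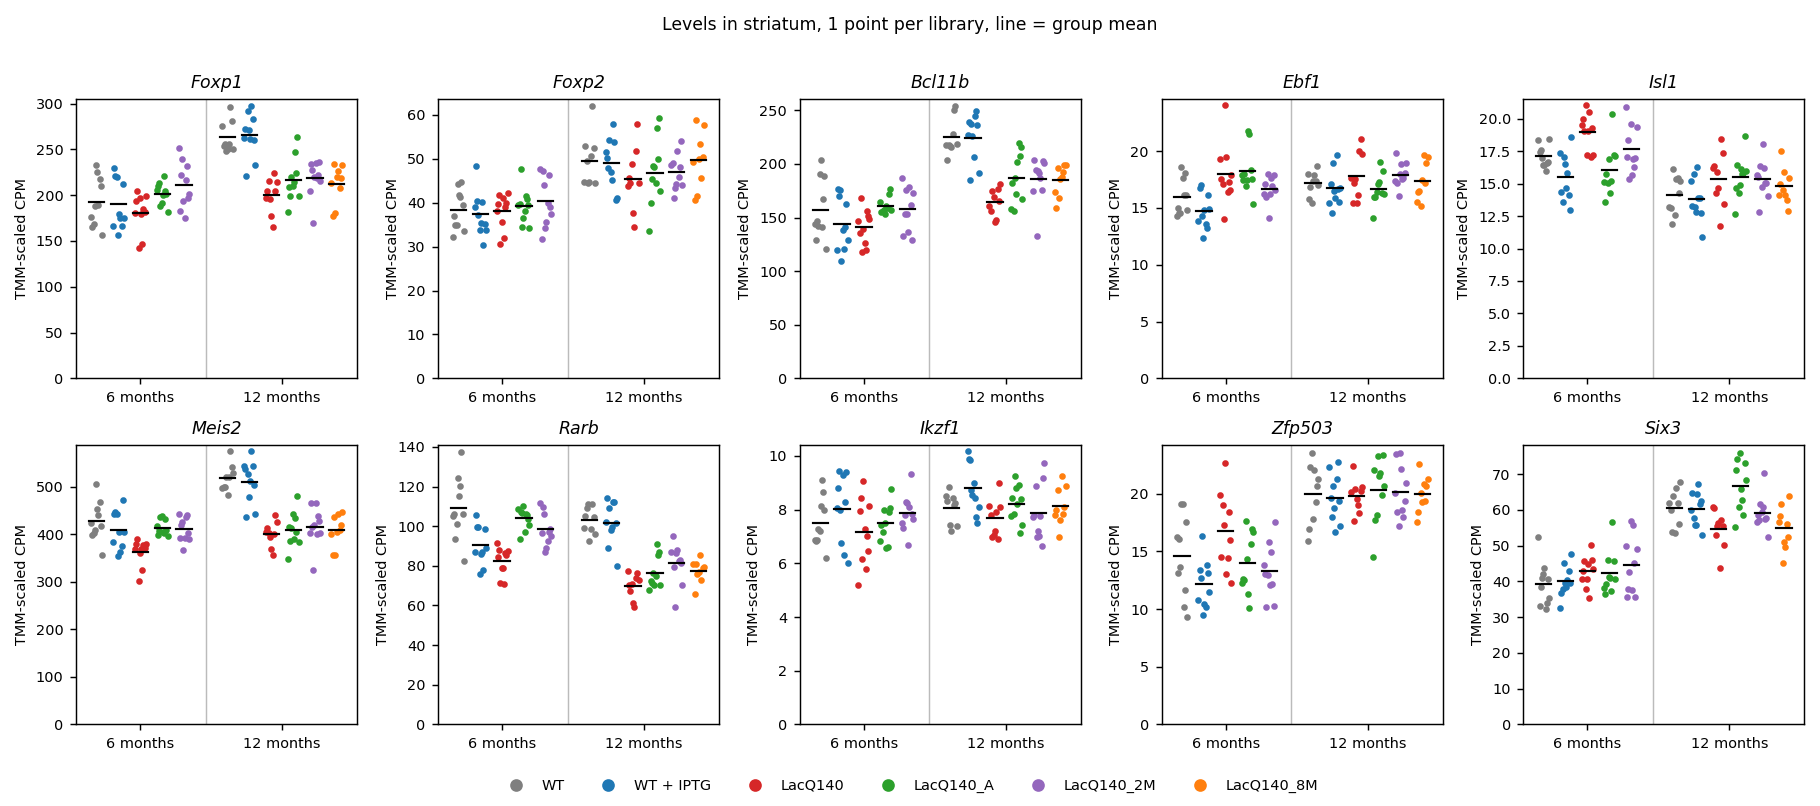
TMM-scaled CPM of each of the 10 transcription factors in every striatal library (y axis, from 0), by age and group, with a line at the group mean (n = 9 or 10 mice). The red LacQ140 points sit high for *Isl1* and *Zfp503* at 6 months and low for *Foxp1*, *Bcl11b*, *Meis2* and *Rarb* at 12 months, and levels of the ages were scaled separately.

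The remaining 6 members did not pass at 12 months. *Ikzf1* averaged 7.68 ± 0.691 CPM (SD, n = 9) in LacQ140 against 8.79 ± 0.927 (n = 10), with an adjusted p of 0.0402 (edgeR) but under 1.2-fold (log2 -0.20). *Six3* stood at -0.14 (adjusted p = 0.139) and *Foxp2* at -0.11 (adjusted p = 0.494, both edgeR). The members that were higher at 6 months gave smaller values here. *Isl1* differed by 0.15 (95% interval 0.014 to 0.296), *Ebf1* by 0.09 (-0.028 to 0.207) and *Zfp503* by 0.01 (-0.13 to 0.153).

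Markers of other cells moved beside these values. In 6-month LacQ140 striatum, 5 of 8 microglial markers fell (summed 456.4 to 535.6 CPM against 541.7 to 639.2 in WT + IPTG), as did 3 of 8 oligodendrocyte markers (9754 to 12250 against 12650 to 16250 CPM). At 12 months 1 of 8 microglial markers fell, with overlapping sums (477.4 to 564.1 against 529.5 to 616.6 CPM). Of oligodendrocyte markers 2 of 8 fell at 12 months. At each age 3 of 7 mural cell, 1 of 7 astrocyte and 2 of 6 choroid plexus markers fell, the last with sums of 28.83 to 88.47 against 24.16 to 723.5 CPM at 6 months. Endothelial markers fell in 0 of 6 at 6 months and 2 of 6 at 12 months, and markers of GABA interneurons in 2 of 7 and 1 of 7. Of 8 cortical projection neuron markers 2 fell at 6 months and 2 rose at 12 months (median log2 1.1), with overlapping sums at 12 months (108.8 to 462.5 against 109.3 to 194.2 CPM). None of 7 markers of cholinergic interneurons, which also express *Isl1*, was called at either age, and their sums overlapped (113.9 to 158.4 against 118.1 to 165.6 CPM at 6 months). The part of other cells in the members' values was not tested.

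**Figure D3:**
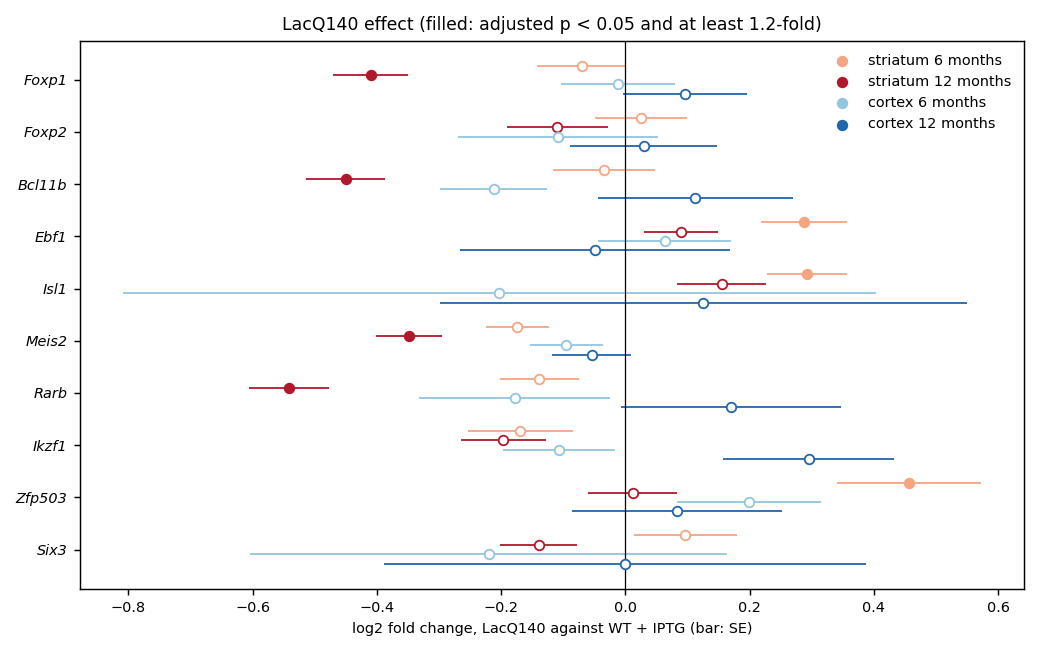
Log2 fold change of LacQ140 against WT + IPTG mice for each member (x axis, bars are the SE), by tissue and age, with filled points for members called. The filled dark red points of *Foxp1*, *Bcl11b*, *Meis2* and *Rarb* lie between -0.54 and -0.35, the filled light points of *Ebf1*, *Isl1* and *Zfp503* between 0.29 and 0.46, and no cortical point is filled.

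Whether the striatal effect itself differed between the ages was tested as an interaction over both tables. *Rarb* (-0.41 ± 0.0925 SE, adjusted p = 0.0046, edgeR), *Bcl11b* (-0.42 ± 0.105, adjusted p = 0.0119) and *Foxp1* (-0.34 ± 0.0957, adjusted p = 0.0302) had a lower log2 fold change at 12 than at 6 months, so their fall was larger at 12 months. That is 3 of 10 members, against 2.07% of all genes in either direction. *Zfp503* had the lowest estimate (-0.45 ± 0.138) and missed the threshold (adjusted p = 0.0605, edgeR). The test did not separate the ages for *Meis2* (-0.18, adjusted p = 0.248), although it was called at 12 months only. Age and batch cannot be told apart here, and each effect was measured against controls of its own age.

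The promoters of the 4 members that fell at 12 months are shown as RefSeq gives them on GRCm38.p6, the 250 bases before an annotated transcription start, read 5′ to 3′ on the gene's strand. Entries existed for 9 of the 10 members. Capitals mark matches, on either strand, to motifs of retinoic acid receptors (GTTCA, 6 bases of any kind, GTTCA), MEIS factors (TGACAG) or homeodomains (TAATTA, which reads the same on both strands). *Rarb* lies at chr14:16575477-16575726, *Bcl11b* at chr12:108003415-108003664 and *Meis2* at chr2:116064620-116064869, all on the minus strand. *Foxp1* has 3 entries, of which only the one at chr6:99266516-99266765 (minus strand) held such a match.
Rarb: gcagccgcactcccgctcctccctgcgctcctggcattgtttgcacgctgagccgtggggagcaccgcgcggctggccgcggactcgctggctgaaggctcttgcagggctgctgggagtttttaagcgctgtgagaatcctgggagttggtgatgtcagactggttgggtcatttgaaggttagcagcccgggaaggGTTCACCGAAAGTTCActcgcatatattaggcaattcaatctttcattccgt
Bcl11b: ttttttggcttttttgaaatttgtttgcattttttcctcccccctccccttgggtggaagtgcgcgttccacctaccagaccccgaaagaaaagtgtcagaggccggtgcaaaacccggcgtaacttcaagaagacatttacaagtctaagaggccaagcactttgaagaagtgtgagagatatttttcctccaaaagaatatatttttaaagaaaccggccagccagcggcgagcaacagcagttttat
Meis2: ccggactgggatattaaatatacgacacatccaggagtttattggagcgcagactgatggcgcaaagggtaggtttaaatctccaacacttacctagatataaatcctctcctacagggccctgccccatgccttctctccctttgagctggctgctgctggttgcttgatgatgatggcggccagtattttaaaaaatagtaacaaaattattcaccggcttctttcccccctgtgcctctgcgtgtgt
Foxp1: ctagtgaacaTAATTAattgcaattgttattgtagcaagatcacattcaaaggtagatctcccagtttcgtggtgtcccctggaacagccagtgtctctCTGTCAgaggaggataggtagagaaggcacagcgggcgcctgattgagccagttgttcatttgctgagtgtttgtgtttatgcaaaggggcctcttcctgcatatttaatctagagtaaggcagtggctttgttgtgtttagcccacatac

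The *Rarb* window held the retinoic acid element, a direct repeat of GTTCA, from 52 to 37 bases before the start. This motif occurred in 22 of 32851 promoters of the same length (0.067%), and among the members in *Rarb* alone. Only this spelling of the element was searched, with both copies as GTTCA, which is how the *Rarb* window spells it. The share therefore describes these letters and not retinoic acid elements in general. That no other member held the motif is limited in the same way. The *Foxp1* window held the homeodomain motif (4.84% of promoters) and the MEIS motif (15.9%), which *Six3* held too. The *Bcl11b* and *Meis2* windows held no match to the 8 motifs searched. The others were a forkhead motif (TGTTTAC, 3.17%), an EBF motif (TCCC and GGGA around 2 free bases, 0.779%) and a CRE (TGACGTCA, 1.55%), found in no member, an IKZF motif (TGGGAA, 21.6%) found in *Ebf1*, and a GC box (GGGCGG, 32.7%) found in *Foxp1* and *Ikzf1*. A match describes the letters of the window and does not show that a factor binds there.

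Lowering of the expanded allele was compared with LacQ140 mice of the same age, so these comparisons share the LacQ140 libraries with those above. The groups also differ in IPTG, which the LacQ140 mice had throughout. At 6 months *Rarb* was the member that rose in LacQ140_A striatum, 1 of 10, against 1.88% of all genes. It ranged from 93.7 to 110.2 CPM in LacQ140_A (median 106) and from 71.01 to 91.57 in LacQ140 (median 84.9). The groups did not overlap, with a log2 difference of 0.34 ± 0.0634 SE (adjusted p = 0.00037, edgeR). *Rarb* was also the member called lower with IPTG in WT striatum at this age (-0.27), so for *Rarb* lowering and the absence of IPTG cannot be told apart in this comparison. *Meis2* (0.19 ± 0.0505, adjusted p = 0.0211) and *Isl1* (-0.24 ± 0.0648, adjusted p = 0.0246, both edgeR) were under 1.2-fold. Without LacQ140_A M3, which had the highest *Isl1* level of its group (20.3 CPM), *Isl1* passed the bound (-0.29). In the same comparison 2 of 7 mural cell and 1 of 8 microglial markers were called higher, with overlapping sums (227.0 to 288.3 against 200.8 to 255.2 CPM and 520.3 to 605.3 against 456.4 to 535.6 CPM). Of the 9 lists of other cells, spiny neuron genes set aside, no marker was called in the other striatal comparisons of a lowering group with LacQ140. The part of these cells in the *Rarb* difference was not tested.

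In LacQ140_2M striatum at 6 months no member was called (1.26% of all genes were). At an unadjusted p under 0.05 edgeR gave 5 members, beside 11.1% of all genes. *Rarb* averaged 98.4 ± 8.35 CPM (SD, n = 10) against 82.3 ± 7.04 in LacQ140 (n = 10), and its log2 difference of 0.26 ± 0.0634 (adjusted p = 0.0158, edgeR) lay just under the bound. *Meis2* differed by 0.18 (adjusted p = 0.0447, edgeR). Of the 3 members higher in LacQ140, *Zfp503* differed from LacQ140 by -0.33 (adjusted p = 0.158) and *Isl1* by -0.11 (adjusted p = 0.583). *Ebf1* differed by -0.11 (95% interval -0.244 to 0.0287, adjusted p = 0.62, edgeR), and in LacQ140_A by 0.02 (-0.114 to 0.158).

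Against WT mice without IPTG, no member was called at 6 months in LacQ140_A (0.91% of all genes were) or LacQ140_2M (0.936%). By unadjusted p under 0.05, edgeR gave 1 member in LacQ140_A (*Ebf1*, 0.19 with an interval of 0.0537 to 0.327) and 2 in LacQ140_2M (*Rarb*, -0.15, and *Six3*, 0.18). Of all genes, 12.5% and 11.7% had such a p. DESeq2 called none in either.

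At 12 months the 4 members that fell in LacQ140 mice did not rise past the threshold in any lowering group. *Six3*, which LacQ140 had not changed past the threshold, rose in LacQ140_A (1 of 10 members, against 0.91% of all genes). It ranged from 55.2 to 76.1 CPM in LacQ140_A (median 67.2) and from 43.8 to 60.7 in LacQ140 (median 55.6), with overlap. The log2 fold change was 0.28 ± 0.0615 SE (adjusted p = 0.00416, edgeR). It fell under the bound without LacQ140 M2 (0.25) or LacQ140_A F5 (0.26). *Rarb* differed from LacQ140 by 0.13 (adjusted p = 0.459) in LacQ140_A and *Bcl11b* by 0.19 (adjusted p = 0.171, edgeR).

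No member was called in LacQ140_2M (0.608% of all genes) or LacQ140_8M (0.00565%) at 12 months. *Rarb* differed from LacQ140 by 0.22 in LacQ140_2M (95% interval 0.0914 to 0.343, adjusted p = 0.104) and by 0.15 in LacQ140_8M (0.0192 to 0.277, adjusted p = 0.864, both edgeR). *Bcl11b* differed by 0.18 (0.054 to 0.303) and 0.17 (0.0411 to 0.297). At an unadjusted p under 0.05 the numbers were 3 members in LacQ140_2M, beside 8.32% of all genes, and 2 in LacQ140_8M, beside 5.13%, and DESeq2 called none. Late and early lowering were also compared directly. Between LacQ140_8M and LacQ140_2M no member was called (0.0933% of all genes were), none at an unadjusted p under 0.05 and none by DESeq2. The interval for *Rarb* was -0.195 to 0.0565.

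Against WT mice without IPTG, *Foxp1*, *Bcl11b*, *Meis2* and *Rarb* were called lower in all 3 lowering groups at 12 months. Neither side was on IPTG at collection, and these comparisons share the WT libraries. The share of all genes called was 3.15% for LacQ140_A, 4.09% for LacQ140_2M and 7.77% for LacQ140_8M. Oligodendrocyte markers were also lower than in WT, 1 of 8 in LacQ140_A, 2 in LacQ140_2M and 3 in LacQ140_8M. Their sums lay below WT (12710 to 15870 CPM) without overlap in LacQ140_2M (9978 to 12620) and LacQ140_8M (10150 to 12170), and overlapped in LacQ140_A (10410 to 17690). In LacQ140_8M 2 of 7 mural cell markers (206.1 to 234.8 against 236.7 to 267.6 CPM), 1 of 7 astrocyte and 1 of 7 cholinergic interneuron markers were lower and 1 of 8 cortical projection neuron markers was higher. The part of these cells in the members' values was not tested.

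*Rarb* averaged 103 ± 6.80 CPM (SD, n = 9) in WT. It averaged 76.6 ± 8.17 in LacQ140_A (n = 10, log2 -0.43, adjusted p = 1.3e-06, edgeR), 81.3 ± 10.0 in LacQ140_2M (n = 10, -0.34, adjusted p = 1e-04) and 77.5 ± 5.63 in LacQ140_8M (n = 9, -0.41, adjusted p = 2.6e-06). *Meis2* averaged 518 ± 28 CPM in WT and 409.7 ± 36.97, 416 ± 40.3 and 408 ± 34 in the same order (log2 -0.34, -0.32 and -0.34). All *Meis2* libraries of the lowering groups lay below all WT libraries. *Foxp1* averaged 263 ± 16.9 CPM in WT and 217 ± 24.0, 218 ± 19.6 and 212 ± 20.8 (log2 -0.28, -0.27 and -0.31). *Bcl11b* averaged 224.7 ± 16.6 CPM in WT and 186.7 ± 23.5, 185.8 ± 21.1 and 184.5 ± 14.5 (log2 -0.27, -0.27 and -0.28). None of the 4 overlapped with WT in LacQ140_8M. The share of all genes without overlap in that comparison was not computed.

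*Foxp1* and *Bcl11b* lay close to the bound, and leaving out 1 mouse ended a call several times. All adjusted p-values stayed at or under 0.0192 in those fits (edgeR), and the fold change fell under 1.2. In LacQ140_A, *Foxp1* was lost without LacQ140_A F1 (-0.25), LacQ140_A M5 (-0.26) or WT M3 (-0.25). *Bcl11b* was lost there without F1 (-0.24), F3 (-0.24), F4 (-0.26), F5 (-0.26) or M5 (-0.24) of LacQ140_A, or WT M3 (-0.24) or M4 (-0.24). In LacQ140_2M, *Foxp1* was lost without F1 (-0.26) or F4 (-0.23) of that group, or WT F1 (-0.26), M3 (-0.24) or M4 (-0.26). *Bcl11b* was lost there without F4 (-0.23), WT M3 (-0.25) or WT M4 (-0.25). In LacQ140_8M, *Bcl11b* was lost without F2 (-0.25) or F5 (-0.26) of that group, or WT M3 (-0.25) or M4 (-0.26). *Meis2* and *Rarb* were called in every such fit.

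The library LacQ140_2M F4 stood low for several members. It held 170.1 CPM of *Foxp1* where the next lowest of its group held 204, 133 of *Bcl11b* against 175, and 324 of *Meis2* against 401. It was also the library with the fewest counts (33292014). Without it, 2 members, *Meis2* and *Rarb*, remained called against WT.

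**Figure D4:**
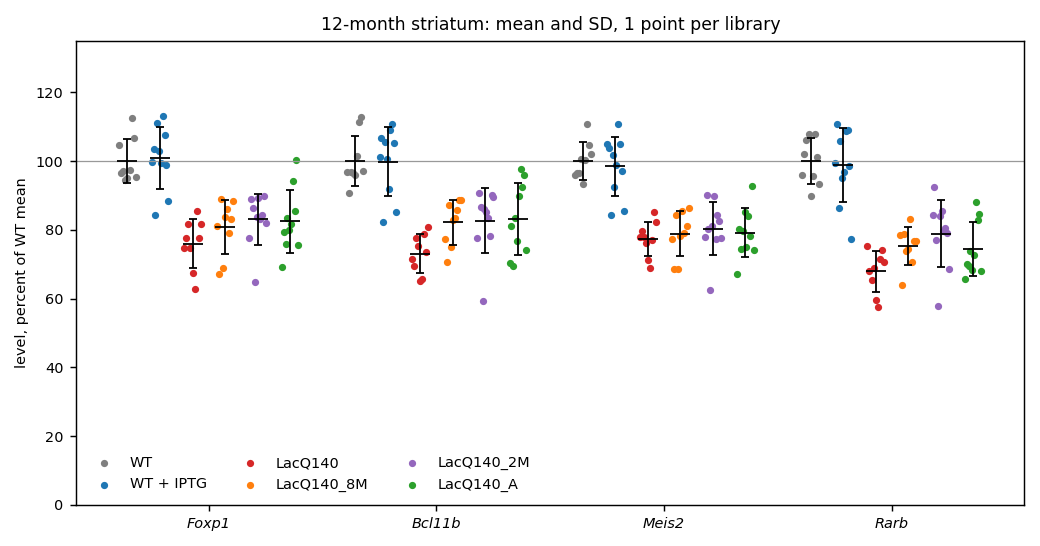
Level of 4 members in every 12-month striatal library as a percent of the WT mean (y axis, from 0), with the mean and SD of each group (n = 9 or 10 mice). The groups carrying the expanded allele lie below the WT line on average for each gene, and LacQ140_8M, LacQ140_2M and LacQ140_A lie between LacQ140 and WT without a called difference from LacQ140.

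IPTG given to WT mice was followed as the background of the treatment. In striatum at 6 months *Rarb* was the member called, 1 of 10, against 0.584% of all genes. It ranged from 82.3 to 137 CPM in WT (median 106) and from 75.9 to 106 in WT + IPTG (median 87.97), with overlap. The log2 fold change was -0.27 ± 0.0633 SE (adjusted p = 0.0212, edgeR). The call depended on single mice. It held in 11 of 20 fits that left out 1 mouse, with values from -0.31 to -0.23 and adjusted p up to 0.0894. It was lost without WT F5, M1, M2 or M3 or WT + IPTG F1, F5, M1, M2 or M3, and in a fit of these 2 groups alone (-0.26). In the same comparison 1 of 8 oligodendrocyte markers (summed 12650 to 16250 CPM in WT + IPTG against 10930 to 15720 in WT) and 1 of 6 choroid plexus markers (24.16 to 723.5 against 22.92 to 49.32 CPM) were called higher, and their part in the *Rarb* difference was not tested. At 12 months the *Rarb* difference was -0.02 (95% interval -0.142 to 0.108). No member was called for IPTG in 12-month striatum (0.218% of all genes), 6-month cortex (0.609%) or 12-month cortex (0.0%). By unadjusted p under 0.05 the numbers were 0, 2 and 1, beside 11.4%, 11.9% and 5.8% of all genes, and DESeq2 called none.

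In cortex no member was called in LacQ140 mice at 6 months (0.881% of all genes) or 12 months (0.0899%), with none by DESeq2. At an unadjusted p under 0.05 edgeR gave 1 member at each age, near the 9.94% and 8.68% of all genes. *Bcl11b* averaged 30.8 ± 3.38 CPM (SD, n = 10) in 6-month LacQ140 cortex against 35.7 ± 2.15 (n = 10) in WT + IPTG (log2 -0.21, adjusted p = 0.304, edgeR). *Ikzf1* averaged 2.39 ± 0.469 CPM (n = 10) against 1.94 ± 0.308 (n = 10) at 12 months (0.30, adjusted p = 0.544, edgeR). The low members could not be judged at this depth: the interval for *Isl1* at 6 months ran from -1.39 to 0.984. No member was called for lowering in cortex. The shares of all genes called were 0.00834% (LacQ140_A) and 0.0% (LacQ140_2M) at 6 months, and 0.0435% (LacQ140_A), 0.0841% (LacQ140_2M) and 0.0% (LacQ140_8M) at 12 months. At an unadjusted p under 0.05 edgeR gave 1, 3, 0, 0 and 1 members in that order, beside 7.47%, 9.72%, 13.2%, 5.51% and 2.83% of all genes, and DESeq2 called none.

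The difference between tissues was tested as an interaction. At 6 months no member was called for a difference in the effect of LacQ140 between striatum and cortex (0.653% of all genes were), none at an unadjusted p under 0.05 and none by DESeq2. At 12 months 5 of 10 had a lower log2 fold change in striatum than in cortex, against 2.53% of all genes in either direction. *Rarb* differed by -0.73 ± 0.181 SE (adjusted p = 0.00751, edgeR), *Foxp1* by -0.53 ± 0.118 (adjusted p = 0.00211) and *Meis2* by -0.31 ± 0.0827 (adjusted p = 0.0148). *Bcl11b* (-0.58 ± 0.175, adjusted p = 0.0458) and *Ikzf1* (-0.51 ± 0.147, adjusted p = 0.0326) lost the call with the length slope as a covariate (-0.41 and -0.44). *Bcl11b* also lost it with DESeq2 size factors (adjusted p = 0.0518). No member was called for a difference in the striatal effect of LacQ140 between males and females at 6 months (0.0% of all genes) or 12 months (0.00565%). At 12 months 1 member, *Ikzf1*, had an unadjusted p under 0.05 (interval 0.0147 to 0.536), beside 9.29% of all genes, and DESeq2 called none at either age.

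Relatives of the members from the same families were read as a list. Of 21 paralogs, 6 rose and 1 fell in 6-month LacQ140 striatum (median log2 0.276, against 0.0 over all genes), where 7.93% of all genes were called. *Foxp4*, a forkhead relative of *Foxp1*, rose by 0.55 (25.7 ± 3.84 against 17.5 ± 2.45 CPM, SD, n = 10 each). *Rara* and *Rarg*, the other retinoic acid receptors, rose by 0.44 and 0.34 while *Rarb* stood at -0.14. *Bcl11a* rose by 0.32, *Zfp703* by 0.41 and *Ikzf4* by 0.36, and *Ikzf3* fell by 0.34. At 12 months 3 rose and 1 fell (median 0.177), where 9.44% of all genes were called. *Foxp4* (0.43) and *Rara* (0.33) rose again at the age when *Foxp1* and *Rarb* fell, *Ikzf3* fell by 0.43, and *Isl2* was called higher at levels near 0 (0.047 against 0.0069 CPM). In LacQ140_2M at 6 months *Rara* (-0.38) and *Foxp4* (-0.33) were lower than in LacQ140, as was *Ebf2*, making 3 of 21 beside 1.26% of all genes. No paralog was called in LacQ140_A at 6 months (1.88% of all genes). At 12 months 1 of 21, *Ikzf4*, was lower in LacQ140_A (-0.27, 0.91% of all genes), and none was called in LacQ140_2M (0.608%) or LacQ140_8M (0.00565%).

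Of 20 other transcription factors of the striatum or its precursors, 6 rose and 1 fell at 6 months (median 0.145), beside the same 7.93% of all genes. The ventral forebrain factors *Dlx2* and *Dlx5* rose by 0.39 and 0.43, *Sp9* by 0.42 and *Sox8* by 0.34. *Gsx1* was called higher at a low level (0.31 against 0.19 CPM). *Rxrg*, a retinoid X receptor that pairs with retinoic acid receptors, fell by 0.47 (106 ± 10.8 against 147 ± 18.4 CPM, n = 10 each). At 12 months 2 rose and 4 fell (median -0.0533), beside 9.44% of all genes. *Rxrg* fell by 0.78 (110.4 ± 16.2, n = 9, against 189.6 ± 28.8 CPM, n = 10). The activity-dependent factors *Nr4a1* and *Egr3* fell by 1.11 and 0.76 and *Klf16* by 0.33. *Gsx2*, at a low level (0.41 against 0.15 CPM), rose by 1.46. Against LacQ140 at 6 months 1 of 20, *Rxrg*, was higher in LacQ140_A (0.49, 1.88% of all genes called). In LacQ140_2M *Rxrg* was higher (0.40) and *Dlx2* (-0.41) and *Gsx2* (-0.88) were lower (1.26% of all genes). At 12 months *Gsx2* was lower in LacQ140_2M (-0.96, 0.608% of all genes), and none of the 20 was called in LacQ140_A or LacQ140_8M.

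Genes that mark mature spiny neurons fell in larger numbers. Of 21 tested, 16 fell and 1, *Eya1*, rose at 6 months (median -0.351, 7.93% of all genes called). At 12 months 18 fell and 1, again *Eya1*, rose (median -0.784, 9.44% of all genes called). *Penk*, which encodes enkephalin, fell by 0.72 at 6 months and 1.30 at 12 months, and the sodium channel subunit *Scn4b* by 0.69 and 1.48. *Arpp21* fell by 0.60 and 0.99. The adenosine receptor *Adora2a* and the adenylyl cyclase *Adcy5* fell by 1.06 and 0.91 at 12 months. Between 6 and 12 months the log2 fold change in LacQ140 mice moved downward, by the interaction test, for 17 of these 21 genes. It did so for 3 of the 20 other factors and for none of the 21 paralogs. Of all genes, 2.07% were called in either direction. Against LacQ140 at 6 months 15 spiny neuron genes rose in LacQ140_A (1.88% of all genes called) and 12 in LacQ140_2M (1.26%). At 12 months 9 rose in LacQ140_A (0.91%), 11 in LacQ140_2M (0.608%) and 1 in LacQ140_8M (0.00565%).

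Several members varied together within groups of mice. Over 107 striatal libraries, each centred on its group, *Foxp1* and *Bcl11b* correlated by 0.858, *Foxp1* and *Meis2* by 0.84, *Meis2* and *Rarb* by 0.808, *Foxp1* and *Rarb* by 0.767, *Bcl11b* and *Meis2* by 0.751 and *Bcl11b* and *Rarb* by 0.675. Pairs with members that were not called at 12 months reached like values, among them *Foxp1* and *Foxp2* (0.764), *Foxp2* and *Rarb* (0.683), *Foxp2* and *Meis2* (0.676) and *Foxp1* and *Ebf1* (0.659). The pair of *Isl1* and *Ikzf1* gave the lowest value of the 45 pairs (-0.198). These libraries also share their composition. The slope of log2 CPM on transcript length correlated with *Foxp2* by 0.651, *Foxp1* by 0.594, *Bcl11b* by 0.465, *Ebf1* by 0.43, *Ikzf1* by 0.347, *Meis2* by 0.31 and *Rarb* by 0.3.

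The genes whose levels were most like each member were sought over the same libraries, centred on the mean of each age, so that group differences enter. *Meis2* was most like *Kcnab1* (r = 0.929), *Slmap* (0.916) and *Drd2* (0.905), out of 13272 genes compared. *Rarb* was most like *Cacna2d3* (0.888) and *Drd2* (0.888). *Foxp1* was most like *Foxo1* (0.923), *Gnal* (0.918) and *Diras2* (0.902), and *Bcl11b* like *Ankrd63* (0.882), *Smpd3* (0.882) and *Foxo1* (0.879). *Zfp503* was most like *Pias4* (0.838), *Lrrc4b* (0.833) and *Dlx5* (0.806), and *Foxp2* like *Rps6ka3* (0.828), *Casd1* (0.814) and *Fzd3* (0.808). The best values were lower for *Ebf1* (*Nr3c2*, 0.7, and *Robo2*, 0.688), *Six3* (*Gad1*, 0.635, *Hs3st4*, 0.635, and *Kcnh2*, 0.571), *Ikzf1* (*Zhx3*, 0.614, *Kbtbd11*, 0.611, and *Tacc1*, 0.601) and *Isl1* (*Cited2*, 0.598, *Zfp248*, 0.597, and *Ccdc71l*, 0.581).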

How the data were processed

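RNA was sequenced by the authors as paired-end Illumina libraries; the labels give total RNA as the extracted molecule and mRNA in the sample titles. The authors deposited expected counts per gene, without normalization, in 1 table per age; 33.26% of nonzero values at 6 months and 31.29% at 12 months were not whole. The labels name the build GRCm38, and the aligner, counter and annotation are not given in the sources used here. Columns were matched to samples by their labels, and groups, sex and replicate were taken from the labels. Identifiers were matched to GENCODE vM21 (54495 of 54532).

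In R 4.3.3, edgeR 4.0.16 (TMM normalization, glmQLFit with legacy=FALSE, then glmQLFTest) was run on rounded expected counts, over genes with at least 1 count in a tissue and age, in a fit of all groups of that tissue and age. Interactions with tissue or age used a fit of both tissues or both ages. The bound of 1.2-fold was 2-fold between tissues. Standard errors were taken from the F statistic, and 95% intervals are for log2 fold changes and unadjusted. Intervals cover the spread between the mice of 1 study, with different mice at each age. Depths of 33292014 to 68038785 counts are over both tissues and ages. DESeq2 1.42.0, other filters, scalings, covariates and control groups, and leaving out each mouse, were alternatives. The edgeR step was tested on simulated data. For 34856 genes simulated after 6-month LacQ140 against WT + IPTG striatum, it recovered 45 of 50 genes raised 1.5-fold and 50 of 50 raised 2-fold, 41 of 50 lowered to 0.667-fold and 50 of 50 lowered to 0.5-fold, with 6 false calls. The changed genes were drawn from genes with higher counts, and every gene was given the same spread. The changes called for members in LacQ140 mice were smaller than 1.5-fold, a size that was not simulated.

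A chi-square comparison of 963 library pairs within groups gave at least 6.5 per degree of freedom, so no library was counted as a duplicate. Replicate numbers name different mice in each group. Residuals of libraries with the same number correlated by -0.055 and -0.0269 in striatum at 6 and 12 months, and by -0.0276 and 0.0465 in cortex, so the numbers do not pair mice within a tissue. Both tissues came from the same mouse for 107 of 110 mice (mean correlation 0.165 at 6 and 0.0917 at 12 months), and a mouse block changed no call of a member.

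All 10 members are named, with *Htt*, called genes of the paralog and other transcription factor lists, at most 5 spiny neuron genes with the smallest p in striatal LacQ140 mice at either age, the called exception *Eya1*, and 3 genes most like each member (Pearson's r of log2 CPM with a prior count of 2, genes with a mean log2 CPM of at least 1). *Eya1* and the list genes named for lowering were chosen after their values were seen. Some genes that these rules would name are not reported here. The members and lists were chosen with earlier results of these data known. Promoters came from RefSeq (GRCm38.p6).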

Additional observations from a re-analysis of the deposited data

Results flagged for a closer look

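In 220 groups of values (10 members in 22 groups), 19 held a library far from the others by Dixon's test, where chance alone gives about 1 in 20 groups. In striatum, the library LacQ140_2M F4 at 12 months was lowest for *Foxp1* (170.0 CPM, next 204), *Bcl11b* (133 CPM, next 175) and *Meis2* (324 CPM, next 401). The library LacQ140_A M3 at 6 months was highest for *Isl1* (20.3 CPM, next 17.2) and *Six3* (56.5 CPM, next 46). *Foxp2* was highest in LacQ140_A F3 at 6 months (47.7 CPM, next 41.4) and WT M3 at 12 months (62.1 CPM, next 53.0). *Ebf1* was lowest in LacQ140_2M F5 at 6 months (14.1 CPM, next 16.0), and *Six3* highest in LacQ140_2M M2 at 12 months (70.4 CPM, next 61.7).

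In cortex at 6 months, the library LacQ140_A F3 was highest for *Isl1* (2.85 CPM, next 1.05) and *Six3* (3.04 CPM, next 1.86). *Bcl11b* was highest in WT F3 (46.5 CPM, next 37.2) and in LacQ140 M5 (39.4 CPM, next 32.1), and *Zfp503* lowest in LacQ140 M4 (1.65 CPM, next 2.74). In cortex at 12 months, *Foxp2* was highest in LacQ140_8M M2 (7.02 CPM, next 5.52), *Ebf1* in WT M1 (2.16 CPM, next 1.38), *Isl1* in WT F5 (1.54 CPM, next 0.602) and *Ikzf1* in LacQ140_2M M5 (3.95 CPM, next 2.57), and *Rarb* was lowest in LacQ140 M3 (0.925 CPM, next 2.11).

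The effect of LacQ140 differed between striatum and cortex at 12 months, by a test of the difference, for *Foxp1* (-0.53), *Bcl11b* (-0.58), *Meis2* (-0.31), *Rarb* (-0.73) and *Ikzf1* (-0.51, all log2). At 12 months their cortical levels were lower than the striatal ones (19.4 ± 3.37 CPM for *Foxp1*, 66.7 ± 5.28 for *Meis2*, 9.09 ± 2.17 for *Bcl11b*, 2.18 ± 0.636 for *Rarb* and 1.94 ± 0.308 for *Ikzf1* in WT + IPTG, SD, n = 10). It also differed between 12 and 6 months in striatum for *Foxp1* (-0.34), *Bcl11b* (-0.42) and *Rarb* (-0.41), where age and batch cannot be told apart.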

How the results depend on the processing

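Of 2490 values of single members under alternatives, fits without 1 mouse not counted, 2474 kept their side of the threshold, 6 lost a call, 10 gained one and 0 reversed, and 0 of 220 group means moved beyond 1 SD with another scaling. The number of members called changed by over 1.5 times in 4 of 249 alternatives. The IPTG effect in 6-month striatum gave 0 members in a fit of the groups compared alone. Without the fold bound, LacQ140_A against LacQ140 at 6 months gave 3 members and LacQ140_2M against LacQ140 gave 2. The tissue interaction at 12 months gave 3 members with the length slope as a covariate. *Zfp503* passed the age interaction with a count filter (-0.45) or the length slope (-0.45), alternatives chosen after seeing the data. With the replicate block, striatal LacQ140 mice gave 3 members at 6 months and 4 at 12 months, as without it. Leaving out 1 mouse, chosen after seeing the data, gave 0 to 1 members for IPTG, 2 to 3 for LacQ140 and 1 to 2 for LacQ140_A against LacQ140 at 6 months. At 12 months it gave 4 for LacQ140, 0 to 1 for LacQ140_A against LacQ140, and against WT 2 to 4 for LacQ140_A, 2 to 4 for LacQ140_2M and 3 to 4 for LacQ140_8M. Over all genes, 52 of 249 counts moved by over 1.5 times, among them striatum against cortex at 12 months (11922, or 4168 with the length slope), IPTG in 6-month striatum (209, or 126 for the groups alone) and in 12-month striatum (77, or 14 with the replicate block). Where no other cause is named, the cause was not tested. Low cortical counts limit what could be seen there, most for *Isl1* and *Six3*, the members with the lowest means in WT + IPTG cortex at both ages.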
